A study of Mus musculus with 12 samples.

Results

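The genes described here are 24 symbols of developmental transcription factor families that entered at least 1 of 3 mRNA tables from colonies of AKR-2B cells, a mouse fibroblast line. They were chosen by name: a symbol had to begin with 1 of 20 family prefixes (among them Hox, Sox, Fox, Tbx, Pax, Lhx, Nkx, Dlx, Msx, Pitx, Irx, Gata, Hand, Twist, Runx, Meox, Barx, Prrx and Klf), and Sox9 was left out. The 3 tables together hold 2091 genes. The tables keep extreme ratios alone, so the values themselves chose the members, and their sizes and sides are given as a description with no test. The label holds for 22 of the 24: Foxred2 encodes a flavoprotein of the endoplasmic reticulum and Pax6os1 a noncoding RNA antisense to Pax6.

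Homeobox, forkhead, SOX, T-box and paired box proteins bind DNA through a domain shared within each family and set regional and cell identity in the embryo. In fibroblasts such factors carry a memory of where in the body the cells came from, and Hox genes are best known for this. TGFβ is a secreted growth factor that acts through SMAD proteins, which bind DNA beside other factors.

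The colonies grew in soft agar, a medium without attachment, with 25 ng/mL TGFβ, sampled on days 2, 4 and 8, or with vehicle, sampled on the same days. All came from the 1 line, and each treatment and day had 1 mRNA library and 1 miRNA library, so mRNA differences cannot be set against replicates and carry no p-value. In these bulk libraries fewer cells of a type and less RNA per cell cannot be told apart. Of 14 fibroblast markers 2 were listed, Fap and Fbln2, both above 1, and the tables give no level for the other markers.

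Each table gives 1 ratio per gene for 998 genes, 499 above 1 and 499 below 1. No header states the direction. It was read as TGFβ over vehicle from 19 symbols of direct TGFβ targets, a list chosen with results known. Ccn1 and Cyr61 on that list name 1 gene. Of the 19 symbols, 9 lay above 1 at any day and 1 below. The labelled miRNA columns bear on this reading, in a comparison chosen after seeing the data: among 11 pairs of a miRNA and a day whose host gene was listed with at least 20 reads, 8 lay on the same side as the host under it, over 5 host or precursor genes. These pairs are not independent, since most of the 8 are arms and days of miR-455 in Col27a1. By host, Col27a1 and Vwa5b2 lay on the same side as their miRNAs and Odz4 and A330076H08Rik on the other. A230057D06Rik was split, and its miR-344-3p is also counted under A330076H08Rik. Without that limit on the host, 35 of 48 pairs did, over 31 genes. The contractile genes, which TGFβ raises in many fibroblasts, lay mostly below 1, with 1 of 7 above at any day and 4 below. Read the other way, every direction given here would turn round.

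In lowest terms 99.9% of the 2994 ratios were a quotient of 2 odd whole numbers, the form of reads plus 0.5 in each library with no scaling. Each odd number was therefore turned back into reads (the number less 1, divided by 2). These are the smallest reads that give the ratio, because a shared factor cancels, and they are called implied reads. Every read number given for a listed gene is such a minimum, so a low one does not show that a library held few reads. A difference in depth between the 2 libraries of a day stays in every ratio of that day, and the depth of the mRNA libraries is unknown here. A larger odd term of 41 stands for 20 implied reads in 1 library.

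The 24 members made 36 listings (a gene at a day), 18 above 1 and 18 below. At day 2, 5 members lay above 1 and 7 below, against 50.0% of all listed genes above. At day 4, 8 lay above and 5 below, against 50.0%, and on day 8, 5 above and 6 below, against 50.0%. Implied reads were mostly low: 24 of 36 had under 10 implied reads in both libraries (66.7%, against 53.2% of all listings), and 11 had 3 or fewer. Those with 20 or more in 1 library numbered 3 of 12 on day 2, against 29.7% of all listed genes, 5 of 13 on day 4, against 39.4%, and 4 of 11 on day 8, against 42.3%. The form with 0 implied reads in 1 library was taken by 9 of 12 members on day 2 (75.0%, against 66.8% of all listed genes). On day 4 it was taken by 7 of 13 (53.8%, against 57.2%) and on day 8 by 7 of 11 (63.6%, against 56.6%). Where a library truly held 0 reads, the size of the ratio depends on the added 0.5.

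**Figure D1:**
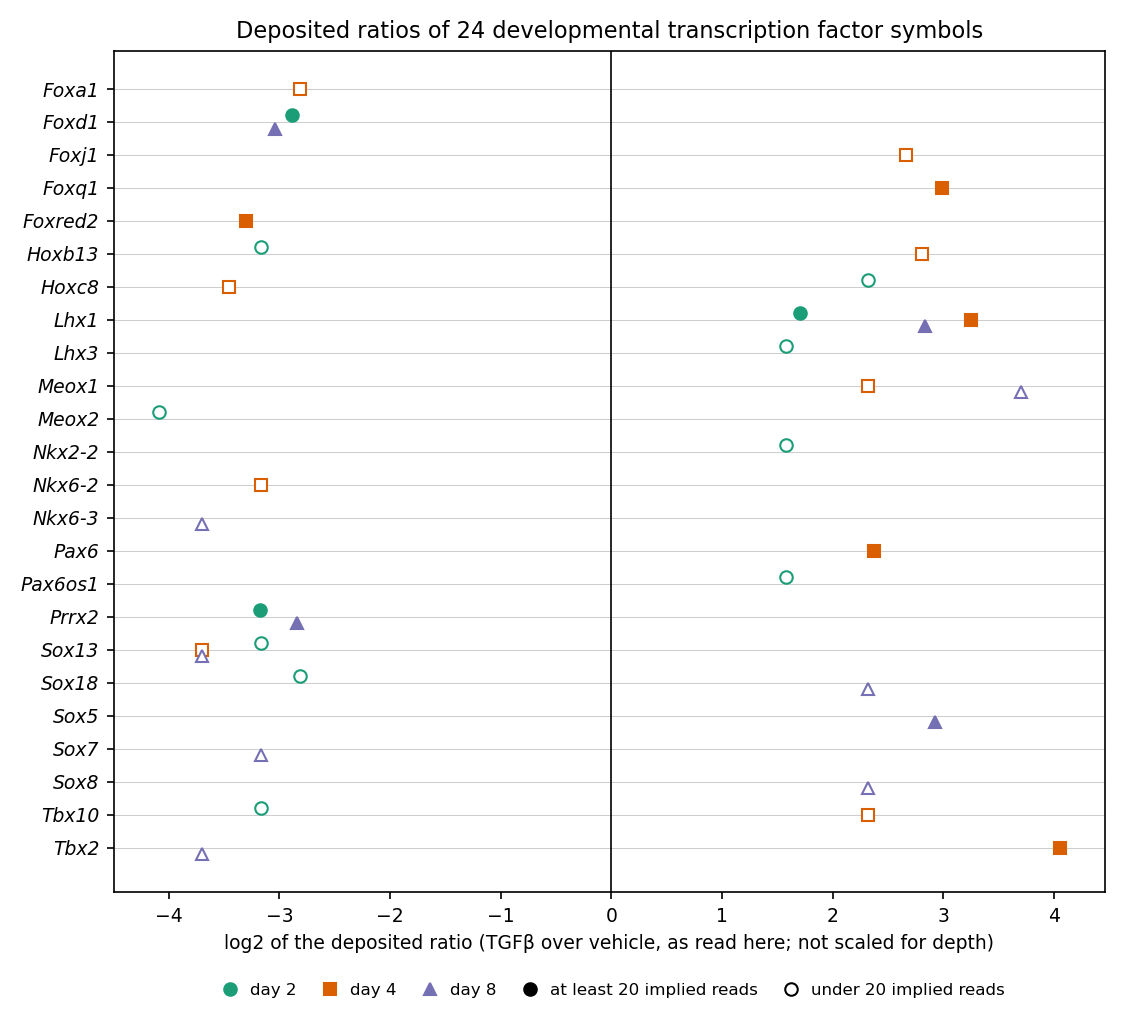
Log2 of the deposited ratio (horizontal axis, TGFβ over vehicle as read here) for each of the 24 members, with a circle for day 2, a square for day 4 and a triangle for day 8. Filled symbols have at least 20 implied reads in 1 library; 12 of the 36 listings are filled, and Lhx1 alone is filled at all 3 days.

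Lhx1, a LIM homeodomain factor of the head organizer and the developing kidney, was the 1 member with 20 or more implied reads in a library at all 3 days. Its implied reads were 487 in the TGFβ library and 150 in the vehicle library on day 2, 936 and 98 on day 4, and 798 and 112 on day 8. The TGFβ library held more at each day. These are minima from libraries of unknown depth, so they give no course over the days. The authors' deposited table gave ratios of 3.24, 9.51 and 7.10 on days 2, 4 and 8. Those values ranked 300, 180 and 248 among the 499 genes above 1 of their day, so Lhx1 was not among the extreme genes of any table.

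The gene lies at chr11:84518284-84525535 on the minus strand of mm10. A second listed transcript begins beside it: 1500016L03Rik, annotated as Lhx1os in GENCODE, starts 0.125 kb away on the opposite strand, at chr11:84525660-84535831. It had 94 implied reads in the TGFβ library and 18 in the vehicle library on day 8, a ratio of 5.11 in the authors' deposited table, and was not listed on days 2 and 4. Both transcripts therefore lay above 1 on day 8. Their annotated spans do not overlap, but the library kit named in the labels does not mark strand.

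Prrx2, a paired-related homeobox factor of embryonic mesenchyme, had the most implied reads of any member. It had 642 implied reads in the TGFβ library and 5811 in the vehicle library on day 2, and 542 and 3884 on day 8. At both days the vehicle library held several times more. In the authors' deposited table the ratios were 0.111 and 0.140, or 9.05-fold and 7.16-fold lower with TGFβ. Counted from the lowest ratio, they ranked 287 and 492 among the 499 genes below 1 of their day, so the day 8 value was close to the edge. The gene lies at chr2:30834972-30881251 on the plus strand. Its relative Prrx1 was not listed, which does not show it unchanged.

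Foxd1, a forkhead factor that marks the stromal progenitors of the kidney, had the same pattern. Implied reads were 34 in the TGFβ library and 255 in the vehicle library on day 2, and 34 and 284 on day 8. The ratios in the authors' deposited table were 0.135 and 0.121, or 7.41-fold and 8.25-fold lower. Counted from the lowest ratio, they ranked 424 and 445 among the 499 genes below 1 of their day. Neither Foxd1, at chr13:98354242-98359305 on the plus strand, nor Prrx2 was listed on day 4, which does not show them unchanged on that day.

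Since these 3 genes were the ones with at least 20 implied reads at more than 1 day, their promoters are shown, from 250 bases before the RefSeq start to 50 after it (GRCm38.p6, 5′ to 3′ on the gene's strand). Capitals mark the letters CAGAC, the SMAD box, on either strand.
Lhx1, chr11:84525485-84525784, minus strand: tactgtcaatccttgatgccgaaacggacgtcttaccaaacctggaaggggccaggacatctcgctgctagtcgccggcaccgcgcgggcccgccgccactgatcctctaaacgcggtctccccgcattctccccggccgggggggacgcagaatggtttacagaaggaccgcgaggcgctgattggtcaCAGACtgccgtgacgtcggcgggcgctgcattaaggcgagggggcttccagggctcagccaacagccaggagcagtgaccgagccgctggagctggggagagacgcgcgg
Prrx2, chr2:30845117-30845416, plus strand: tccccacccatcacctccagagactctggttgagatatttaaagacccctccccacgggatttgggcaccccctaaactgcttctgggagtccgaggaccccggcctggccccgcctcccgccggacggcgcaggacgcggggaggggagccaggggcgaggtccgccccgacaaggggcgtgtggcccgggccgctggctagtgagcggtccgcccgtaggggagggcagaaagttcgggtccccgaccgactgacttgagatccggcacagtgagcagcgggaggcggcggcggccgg
Foxd1, chr13:98353995-98354294, plus strand: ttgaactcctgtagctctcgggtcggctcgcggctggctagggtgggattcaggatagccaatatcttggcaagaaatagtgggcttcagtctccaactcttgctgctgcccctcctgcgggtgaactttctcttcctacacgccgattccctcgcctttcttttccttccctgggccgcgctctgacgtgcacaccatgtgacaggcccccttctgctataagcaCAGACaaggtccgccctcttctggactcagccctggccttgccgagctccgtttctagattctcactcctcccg
The SMAD box occurred 1 time in the Lhx1 window, 0 times in the Prrx2 window and 1 time in the Foxd1 window. The start of Lhx1os falls inside the Lhx1 window, and the Prrx2 window lies at a RefSeq start within the annotated span of the gene. RefSeq held 17 promoter windows for 15 of the members. Of these 17 windows, 52.9% held CAGAC, close to the 49.6% of all 32851 windows. The palindromic element GTCTAGAC was in 0 of them (0.213% of all windows), GGCGCC in 3 (17.6%, against 11.9% of all windows), the AP-1 letters TGANTCA in 0 (7.81% of all windows) and TATAAA in 3 (17.6%, against 13.6%), each read on both strands. The windows were rich in CpG: the observed over expected CpG ratio had a median of 0.74 over the members' windows, against 0.38 over all windows, and was 0.96 for Lhx1, 0.76 for Prrx2 and 0.62 for Foxd1. Unlisted genes of the same prefixes were not compared, so this difference cannot be tied to being listed. A match of letters is not a binding site.

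**Figure D2:**
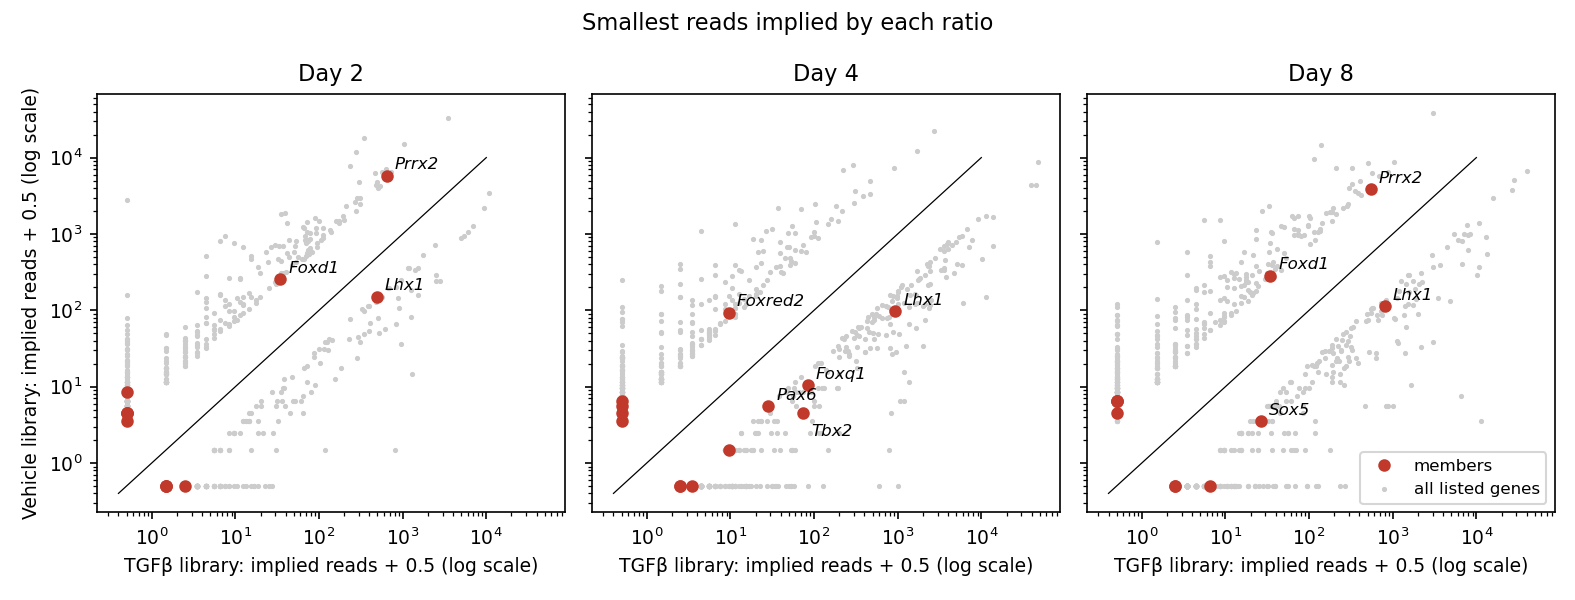
Smallest implied reads plus 0.5 in the TGFβ library (horizontal, log scale) and the vehicle library (vertical, log scale) on days 2, 4 and 8, with members in red, all listed genes in grey and a line where the libraries are equal. Members with at least 20 implied reads in 1 library are named: Prrx2 sits highest of the members in the panels for days 2 and 8, Lhx1 lies under the line in every panel, and most other members lie on the edges where 1 library has 0 implied reads.

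Of the forkhead genes listed at 1 day, Foxq1, a factor associated with epithelial-mesenchymal transition, had 83 implied reads in the TGFβ library and 10 in the vehicle library on day 4, and stood at 7.95 in the authors' deposited table. Foxj1, the factor that switches on motile cilia, had 9 and 1 reads on day 4 and a ratio of 6.33 in the authors' deposited table. Foxa1, a pioneer factor of endoderm, had a ratio of 0.143 in the authors' deposited table on day 4, on 0 reads with TGFβ and 3 with vehicle. Foxred2, the member that is no forkhead factor, had 9 reads in the TGFβ library and 93 in the vehicle library on day 4, and was 9.84-fold lower in the authors' deposited table. The Fox prefix thus split over both sides, with 2 listings above 1 and 4 below.

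Of 11 epithelial markers 3 were listed (27.3%, against 8.15% of all coding genes), with 3 above 1 and 0 below on day 2, 1 and 0 on day 4, and 1 and 0 on day 8. Foxq1, Foxj1 and Foxa1 were listed on day 4 alone, when Krt8 was the 1 epithelial marker listed, and Foxa1 lay below 1. The keratin gene Krt8 stood at 33.0 on day 2 and 8.60 on day 4 in the authors' deposited table, on 16 and 21 reads with TGFβ and 0 and 2 with vehicle. Krt14 (3 and 0 reads on day 2) and Cldn4 (1 and 0 on day 2, 2 and 0 on day 8) had fewer. Their part in the forkhead values was not tested.

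The SOX genes made 8 listings from 5 genes. Sox5, of the SOXD group and known as a partner of Sox9 in cartilage, was the 1 member of the family with 20 implied reads or more: 26 in the TGFβ library and 3 in the vehicle library on day 8, a ratio of 7.57 in the authors' deposited table. Sox13, of the same group, lay below 1 at all 3 days, with ratios of 0.111, 0.0769 and 0.0769 in the authors' deposited table. Its implied reads were 0 in each TGFβ library and 4, 6 and 6 in the vehicle libraries of days 2, 4 and 8. The 2 SOXD genes thus lay on opposite sides on day 8. Sox8, a SOXE gene, had a ratio of 5 in the authors' deposited table on day 8, on 2 reads and 0.

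Sox7 and Sox18 belong to the SOXF group, known from endothelium. Sox18 had 0 implied reads with TGFβ and 3 with vehicle on day 2, and 2 and 0 on day 8, so its ratios of 0.143 and 5 in the authors' deposited table lie on opposite sides of 1. Sox7 had 0 and 4 reads on day 8 (0.111 in the authors' deposited table). Of 10 endothelial markers 5 were listed (50%, against 8.15% of all coding genes), 2 above 1 and 0 below on day 2, 2 and 0 on day 4, and 3 and 1 on day 8. The largest was the cadherin gene Cdh5, with 15, 31 and 32 implied reads in the TGFβ libraries of days 2, 4 and 8 and 0 in each vehicle library (31.0, 63.0 and 65.0 in the authors' deposited table). Tek had 1 and 0 reads on day 2 and 5 and 0 on day 8, and Emcn 0 and 4 on day 8. The third SOXF gene, Sox17, was not listed. How these markers bear on Sox7 and Sox18 was not tested.

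Tbx2, a T-box repressor, had the largest ratio above 1 of any member and lay below 1 at its other listed day. It had 74 implied reads in the TGFβ library and 4 in the vehicle library on day 4, and 0 and 6 on day 8. The ratios in the authors' deposited table were 16.6 and 0.0769. Day 4 alone had 20 or more implied reads in a library. The gene lies at chr11:85832551-85841948. Tbx10, another T-box gene, had 0 and 4 implied reads on day 2 and 2 and 0 on day 4 (0.111 and 5 in the authors' deposited table).

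Both Hox members also changed sides. Hox genes give cells their position along the body axis, and Hoxb13 and Hoxc8 act in its posterior and thoracic parts. Hoxb13 had 0 reads with TGFβ and 4 with vehicle on day 2, and 3 and 0 on day 4, giving 0.111 and 7 in the authors' deposited table. Hoxc8 had 2 and 0 on day 2, and 0 and 5 on day 4, giving 5 and 0.0909 in the authors' deposited table. Neither had 10 implied reads at a listed day, and no other Hox gene was listed.

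The miRNAs encoded within the Hox clusters were counted in the labelled miRNA libraries, each with a count per sample. miR-10a-5p, from the Hoxb cluster that ends in Hoxb13, had 198, 561 and 2994 reads with TGFβ on days 2, 4 and 8, against 94, 336 and 855 with vehicle. Scaled to library totals the ratios were 1.28 (95% exact binomial interval, counting error only, 0.997 to 1.65), 0.843 (0.735 to 0.968) and 1.05 (0.970 to 1.13), and with TMM scaling 1.53, 1.12 and 1.41, so the side of 1 on day 4 turned with the scaling. miR-10b-5p, from the Hoxd cluster, had 49, 2 and 7 reads with TGFβ, against 2, 2 and 9 with vehicle, so by totals the day 2 ratio was 14.9 (95% exact interval 3.91 to 126), the day 4 ratio 0.505 (0.0366 to 6.96) and the day 8 ratio 0.233 (0.0736 to 0.702). It thus lay above 1 on day 2 and below 1 on day 8, also with TMM scaling (17.8 and 0.312). The epithelial miR-200b-3p was also high in the day 2 TGFβ library, with 77 reads against 1, and its part in the miR-10b-5p value was not tested. miR-196b-5p, from the Hoxa cluster, had 5, 18 and 57 reads with TGFβ against 9, 10 and 19 with vehicle. Scaled to totals these are ratios of 0.338 (0.0889 to 1.12), 0.909 (0.398 to 2.20) and 0.897 (0.526 to 1.60), each interval holding 1, and with TMM scaling 0.403, 1.20 and 1.20. miR-196a-5p had 2, 1 and 1 reads with TGFβ against 0, 0 and 4 with vehicle. Taking the days as 3 pairs, in a fit chosen after seeing the data, edgeR's quasi-likelihood test called 21 of 283 miRNAs at an adjusted p under 0.05 (7.42%), against 1.41% without the day as a block. In the paired fit miR-10a-5p had a log2 difference of 0.35 (adjusted p = 0.524) and miR-196b-5p one of -0.20 (adjusted p = 0.845), and miR-10b-5p and miR-196a-5p had too few reads to be tested.

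Meox1 and Meox2, mesoderm homeobox genes that act in somites, lay on opposite sides. Meox1 stood at 5 on day 4 and 13.0 on day 8 in the authors' deposited table, on 2 and 6 reads with TGFβ and 0 with vehicle at both days. Meox2 had a ratio of 0.0588 in the authors' deposited table on day 2, the lowest ratio of any member, on 0 reads with TGFβ and 8 with vehicle.

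Pax6, the master regulator of eye development, had 28 implied reads in the TGFβ library and 5 in the vehicle library on day 4, a ratio of 5.18 in the authors' deposited table. Pax6os1, which overlaps it on the opposite strand at chr2:105536080-105670330, had 1 read and 0 on day 2 (3.00 in the authors' deposited table). The pair lay above 1 at different days. Without strand, reads from the overlap cannot be assigned to either gene. Opposite-strand overlaps of this kind are annotated for 9 of the 24 members, among them Foxq1, Sox5, Sox8, Meox1 and Nkx6-2. Pax6 and Pax6os1 both count among the 9 through each other. The share over all listed genes was not computed, so the count does not show whether such overlaps are common among the members.

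Lhx3 and the 3 Nkx genes, factors of the nervous system and gut, were each listed once, with at most 6 implied reads. Lhx3, of pituitary and motor neurons, and Nkx2-2, of the ventral neural tube and pancreas, both had a ratio of 3.00 in the authors' deposited table on day 2, on 1 read and 0. Nkx6-2, a neural tube gene, stood at 0.111 on day 4 (0 and 4 reads) and Nkx6-3, a stomach gene, at 0.0769 on day 8 (0 and 6 reads) in the authors' deposited table. Of 10 neural markers 1 was listed, Tubb3, with 5.47 in the authors' deposited table on day 4.

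Several members sat at the very edge of a table. The lowest ratio above 1 was 3.00 on day 2, shared by 186 genes including Lhx3, Nkx2-2 and Pax6os1, and 5 on days 4 and 8, shared by 82 genes including Tbx10 and Meox1 and by 108 including Sox18 and Sox8. The highest ratio below 1 was 0.143 at each day, the value of Sox18 on day 2 and of Foxa1 on day 4. Values just outside these edges are not in the tables used here.

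**Figure D3:**
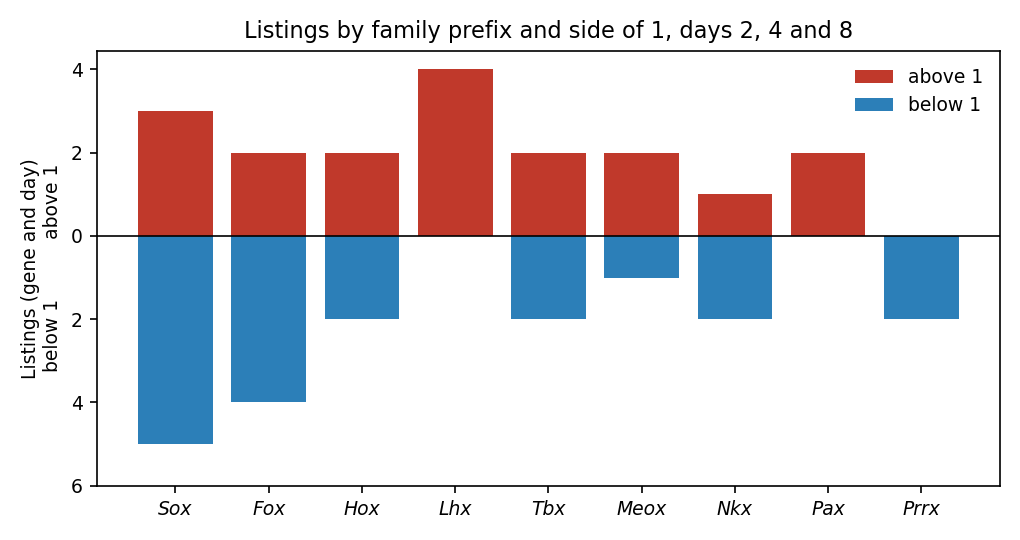
Number of listings (1 gene at 1 day) per family prefix, above 1 upward in red and below 1 downward in blue, over days 2, 4 and 8. Lhx and Pax listings all lie above 1, both Prrx listings lie below, and the other 6 prefixes have listings on both sides.

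By family, 9 of the 20 prefixes had a member. Sox and Fox gave 5 members each, Nkx 3, Hox, Tbx, Pax, Lhx and Meox 2 each, and Prrx 1. Both annotated Meox genes were listed, as were 5 of 18 Sox genes and 2 of 39 Hox genes. No listed symbol carried the Dlx, Msx, Pitx, Irx, Gata, Hand, Twist, Runx, Barx or Klf prefix. RefSeq annotates 17, 9 and 4 coding genes whose symbols begin with Klf, Gata and Runx. In all, 23 of 218 coding genes with the 20 prefixes were listed (10.6%), against 8.15% of all 21900 coding genes. These annotated counts are by prefix, so they can include genes that are not factors of the family.

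Of the 24 members, 10 were listed at 2 or more days (41.7%, against 31.9% of all listed genes), 2 of them, Lhx1 and Sox13, at all 3 days on 1 side (8.33%, against 11% of all listed genes). Among those 10, 5 lay on both sides of 1 at different days: Hoxb13, Hoxc8, Sox18, Tbx2 and Tbx10. That was 50.0% of them, against 7.20% of the 667 genes listed at 2 or more days. Reads moved with this: among listed genes with under 20 implied reads at every listing, 15.0% of those listed at 2 or more days were on both sides, and among such members 4 of 6 (66.7%). The other 5 recurring members, Lhx1, Prrx2, Foxd1, Sox13 and Meox1, kept 1 side. No test was made of these shares, since the members were chosen with the values known.

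**Figure D4:**
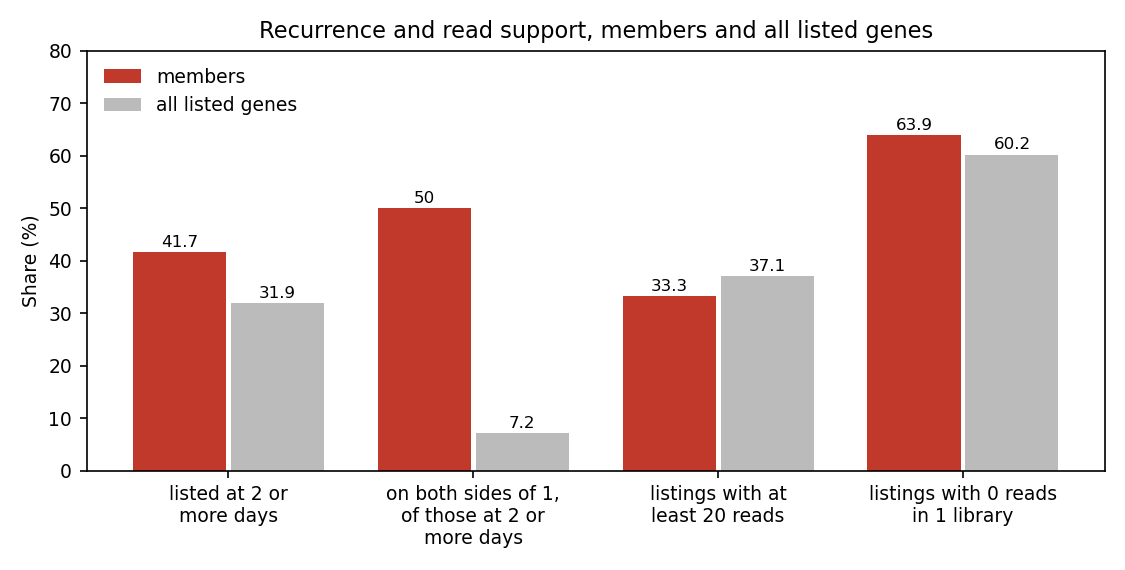
Shares in percent for the members (red, left) and all listed genes (grey, right): genes listed at 2 or more days, genes on both sides of 1 among those, listings with at least 20 implied reads in 1 library, and listings with 0 implied reads in 1 library. The bars differ most for genes on both sides of 1, at 50.0% of 10 members and 7.20% of 667 genes.

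The choice by name fixes position, so position is given as a description. It was not compared with unlisted genes of the same prefixes. All 24 members were placed in the GENCODE M21 annotation of mm10, with 6 on chromosome 2 and 5 on chromosome 11 (25.0% and 20.8%, against 8.99% and 6.81% of all listed genes). Pax6 and Pax6os1, which overlap, both count among the 6. Another listed gene lay within 100 kb of 11 members (45.8%), against 44.3% of all listed genes that could be placed. In 4 of these pairs both genes were on 1 side at a shared day. Plekha6, 78.9 kb from Sox13, was below 1 at all 3 days as Sox13 was, at 0.0588, 0.0169 and 0.0316 in the authors' deposited table, with 0, 0 and 1 implied reads with TGFβ and 8, 29 and 47 with vehicle. Agmo, 62.1 kb from Meox2, had a ratio of 0.0413 in the authors' deposited table on day 2, on 2 reads with TGFβ and 60 with vehicle. Next to Foxd1, 2310005E17Rik lay below 1 at all 3 days, on 0 reads with TGFβ and 6, 8 and 4 with vehicle. The other pair was Lhx1 with Lhx1os. Tbx2 had the 1 neighbour on the opposite side at a shared day, 9530048J24Rik, 56.9 kb away, with 3 reads with TGFβ and 0 with vehicle on day 8. A neighbour on the same side at a shared day was found for 16.7% of the members, against 24.7% of all listed genes placed.

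Lists of other transcription factors are set here beside the 8.15% of all coding genes that were listed. Of 23 partners of Hox, Runx, Gata and Lhx proteins 1 was listed, Pbx4, with 5 in the authors' deposited table on day 8 on 2 reads and 0. Of 80 other developmental factors 7 were listed (8.75%), 1 above 1 and 1 below on day 2, 1 and 2 on day 4, and 1 and 2 on day 8. Hopx, a homeodomain-only protein, stood at 0.0667 in the authors' deposited table on day 8, on 0 reads with TGFβ and 7 with vehicle. Dach1 stood at 0.111 in the authors' deposited table on day 2, on 0 and 4 reads. The repressor Prdm1, chosen here for its reads after the values were seen, had 1871 implied reads with TGFβ and 265 with vehicle on day 4, and 1761 and 238 on day 8. Its ratios in the authors' deposited table were 7.05 and 7.39, near those of Lhx1 at the same days. None of 7 regulators of epithelial-mesenchymal transition (among them Snai1, Snai2, Zeb1 and Zeb2) and none of 19 immediate early factors (among them Fos, Jun, Egr1 and Myc) was listed.

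Of 32 basic helix-loop-helix and ID genes 6 were listed (18.8%), 1 above 1 and 2 below on day 2, 1 and 1 on day 4, and 0 and 3 on day 8. Atoh8 had 62, 8 and 1 implied reads with TGFβ on days 2, 4 and 8 and 476, 122 and 138 with vehicle. Bhlhe22 had 10 and 0 on day 4, a ratio of 21 in the authors' deposited table. Id1, a classic BMP target, had 96 and 1315 on day 8. Of the 8 SMAD genes 1 was listed, Smad9, with 74, 42 and 36 reads with TGFβ and 801, 309 and 386 with vehicle.

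Among secreted signals that pattern the embryo, 2 of 19 Wnt ligands were listed. Wnt9a had 197 implied reads with TGFβ and 24 with vehicle on day 4 (8.06 in the authors' deposited table), and Wnt1 had 2 and 0 on day 2. BMP ligands and antagonists numbered 3 above and 1 below on day 2, 2 and 1 on day 4, and 1 and 2 on day 8, of 22. The activin antagonist Fstl3 had 130, 200 and 189 reads with TGFβ and 41, 14 and 32 with vehicle on days 2, 4 and 8, while Bmp6 had 0 with TGFβ and 8 and 6 with vehicle on days 4 and 8. Fst, of the same list and named after the values were seen, lay on the side opposite to Fstl3. It had 74 and 283 reads with TGFβ and 546 and 2297 with vehicle on days 2 and 8. Gdf5 had 12 and 1 on day 4. Of 10 hedgehog pathway genes 3 were listed, 1 above 1 and 1 below on day 2, 0 and 0 on day 4, and 0 and 2 on day 8. Boc, a hedgehog co-receptor, had 86 reads with TGFβ and 24 with vehicle on day 2 (3.53 in the authors' deposited table). Gas1, another co-receptor, had 268 and 299 reads with TGFβ and 2600 and 4015 with vehicle on days 2 and 8, and by the authors' deposited table was 9.69-fold lower on day 2 and 13.4-fold lower on day 8, listed at the same days and on the same side as Prrx2 and Foxd1.

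Cartilage and bone genes, downstream of SOX and RUNX factors, were listed for 7 of 21 genes (33.3%): 2 were above 1 and 0 below on day 2, 2 and 1 on day 4, and 4 and 0 on day 8. At day 8, the day of Sox5, Dmp1 had 13269 implied reads with TGFβ and 538 with vehicle. Mmp13 had 2168 and 33 on that day, and Ibsp 22 and 0. Mmp13 also lay above 1 on days 2 and 4, when Sox5 was not listed. Its TGFβ libraries then held 282 and 147 implied reads, against 23 and 1 with vehicle. The gene below 1 on day 4 was Comp, a cartilage gene, on 5 implied reads with TGFβ and 51 with vehicle. Any link between these genes and Sox5 was not tested. Markers of striated muscle numbered 1 above and 0 below on day 2, 2 and 1 on day 4, and 2 and 1 on day 8, of 12, and those of leukocytes 1 and 0, 0 and 1, and 1 and 1, of 12.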

How the data were processed

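The authors deposited 3 mRNA tables of 1 ratio (fold) per gene, 1 per day, and a table of miRNA read counts with no normalization. Per the submitters' processing notes the tools and builds named were edgeR 3.9 and mm10, without their roles. The aligner is not given in the sources used here. Of 6 mRNA and 6 miRNA libraries, 1 stood for each treatment and day, with miRNA totals from 108716 to 1387785 reads. The deposited scaled miRNA table was not used.

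The smallest pair of odd whole numbers that gave each ratio within its printed digits was sought (smaller term up to 20001), and the step was tested on simulated data. Named members are all 24, in full where listed at 2 or more days or with a larger odd term of at least 41; of other lists, up to 3 genes by largest absolute log2 ratio, of which 2 are not reported here. Prdm1, Comp and Fst, outside the limit of 3 genes, were also named with the values seen. Members and lists were chosen with earlier results of these data known. miRNA ratios were scaled to library totals, or by TMM in edgeR 4.0.16 (R 4.3.3), chosen after seeing the data, with exact binomial intervals from scipy 1.17.1 that cover counting error only. Treatment was also tested over the 6 miRNA libraries with edgeR's quasi-likelihood test, without and with the day as a block (filterByExpr, TMM, Benjamini-Hochberg adjustment), chosen after seeing the data and tested on simulated data; its spread is that between days. Positions came from GENCODE M21 (GRCm38, the build named mm10), and promoters from RefSeq GRCm38.p6; all 24 symbols matched RefSeq. Alternatives were a larger odd term of at least 41 or 21, no ratios with 0 implied reads, no matches that are not DNA-binding factors, and 1 added in place of 0.5.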

Additional observations from a re-analysis of the deposited data

Results flagged for a closer look

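Ratios of 5 members lay on opposite sides of 1 at different days, with 1 library per treatment and day, and the difference between days was not tested. As log2 of the deposited ratio, later day minus first, Tbx2 differed by -7.75 (day 8 minus day 4), Hoxb13 by 5.98, Hoxc8 by -5.78 and Tbx10 by 5.49 (day 4 minus day 2), and Sox18 by 5.13 (day 8 minus day 2). Tbx2 at day 4 is the 1 of these 10 listings with 20 or more implied reads in 1 library; in the other 9 the larger library had 6 or fewer implied reads, which is a minimum.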

How the results depend on the processing

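With a larger odd term of at least 41, the members above and below 1 numbered 1 and 2 on day 2, 4 and 1 on day 4, and 2 and 2 on day 8; 3 were listed at 2 or more days on 1 side (Lhx1, Prrx2 and Foxd1), 1 at all 3 days, and 0 on both sides. A minimum of 21 gave the same counts: 1 and 2, 4 and 1, 2 and 2, then 3, 1 and 0. Leaving out ratios with 0 implied reads in 1 library gave 1 and 2, 5 and 1, 2 and 2, then 3, 1 and 0. These alternatives keep fewer listings by construction. Leaving out Foxred2 and Pax6os1 moved no count by over 1.5 times. With 1 added in place of 0.5 to the implied reads, 20 of the 36 ratios moved by over 1.5 times. All 36 stayed on their side of 1, which this change cannot alter, since the library with more reads remains the larger. The implied reads are minima, so a ratio from more reads would move less. For the mRNA no paired analysis was possible because the tables hold 1 ratio per gene and day and no value per library, and no replicate was left out since each treatment and day had 1 library. For the miRNAs, pairing the libraries by day gave a log2 difference of 0.35 for miR-10a-5p and -0.20 for miR-196b-5p, against 0.33 and -0.28 without the block, and called 21 miRNAs in place of 4. With TMM scaling, added after seeing the data, miR-10a-5p on day 4 stood at 1.12, above 1, against 0.843 by library totals; miR-196b-5p, whose intervals hold 1, stood at 1.20 on days 4 and 8, against 0.909 and 0.897. The cause was not tested. Unknown mRNA depth and the unstated direction limit every ratio.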
